A study of Pyrus pyrifolia with 6 samples.

Results

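The genes described here are those of the authors' deposited table of changed genes whose descriptions name pentatricopeptide repeat proteins, RNA helicases, splicing factors or pre-mRNA proteins, RNA-binding proteins, ribonucleases or tRNA enzymes, zinc finger proteins left out. There were 45 of them among 4291 listed genes. They comprised 17 pentatricopeptide repeat genes, 8 tRNA genes, 7 ribonuclease genes, 4 RNA helicase genes, 3 splicing genes and 6 further RNA-binding protein genes. Each gene was placed in the first of these families that its description matched. A match on letters also brought in a deoxyribonuclease, which cuts DNA, and 2 members are annotated as pseudogenes.

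The fruit were Akibae pears (Pyrus pyrifolia) from a university orchard, and the pulp was sampled either after boron application to the fruit or from control fruit labelled CK, with 3 RNA-seq libraries in each group. The sources used here do not give the fruit age, the dose and form of boron, or what the controls received. Nor do they say whether each library is a separate fruit or tree, and the spread behind every p-value may therefore be technical. The libraries held 1914312 to 2056668 reads in the listed genes. Every listed gene had already been called different by the authors on these same libraries, with a change of 1.00 or more on the log2 scale in either direction, so the number of members that pass a test is a description and no evidence about these families. Adjustment of p-values here ran over these selected genes only, nearly all of which passed. Adjusted p-values near the threshold are therefore close to unadjusted ones.

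Pentatricopeptide repeat proteins form one of the largest protein families of land plants. They are encoded in the nucleus and most are imported into chloroplasts or mitochondria, where each binds particular organelle transcripts and takes part in their editing, splicing, trimming, stabilisation or translation. Aminoacyl-tRNA synthetases load tRNAs with amino acids in the cytosol and in both organelles, helicases remodel RNA, ribonucleases trim or destroy it, and splicing factors remove introns from nuclear transcripts. Many of these proteins serve general gene expression, while others, such as the Dicer enzymes below, act in RNA silencing. Their roles in fruit pulp were not tested. A pear gene that carries an Arabidopsis locus number in its description is named there after its most similar Arabidopsis protein.

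Most members with low counts were higher, and 5 of the 6 with the highest counts lower, in boron fruit on the authors' size factors. Of the 45 genes, 30 were higher, 14 were lower and 1 did not pass (limma on log2(normalized count + 1), adjusted p below 0.05). Among all listed genes 99.2% passed, 73.0% higher and 26.2% lower. The groups did not overlap in 42 members, 29 higher and 13 lower, where 97.7% of all listed genes had groups apart, 72.0% higher and 25.7% lower. Both shares of the members lay near those of the whole table. The median log2 fold change of the members was 1.15, and that of all listed genes was 1.62. The 2 members and 221 listed genes with a group at 0 reads have no fold change of their own, and with these at their lower bounds the medians stayed at 1.15 and 1.62.

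Whether the rises passed, and for some their direction, depended on the scaling of the libraries. With the authors' size factors, 53.99% of the nonzero scores in the authors' deposited table of 42194 genes lay above 0. Scaling on the listed genes alone moved their median log2 fold change by -1.40 with TMM (trimmed mean of M values), by -1.35 with DESeq2-type size factors and by -1.25 with quantile normalization. The TMM and DESeq2-type factors lower boron against control, so the 14 falls could not turn under them. All 14 passed again under each scaling, and with these factors their persistence is no sign of stability. Quantile normalization moves genes by unequal amounts. With it the fall of LOC103965980 went from -1.038 to -1.034 on the log2 scale. The listed genes were all chosen as changed and most were higher, so scaling on them was bound to pull rises towards 0 or below. The loss of rises was thus largely built in, and which scaling fits these libraries was not tested. Of the 30 rises, 4 passed again under each scaling, and the fold change turned negative, without passing, in 13 of them with TMM, 12 with DESeq2-type factors and 10 with quantile normalization. LOC103943864 (PRP21-like) was among the 2 rises that passed under all 3. The percentages of all listed genes called higher under the 3 scalings were 33.4%, 34.6% and 35.6%, and those called lower were 28.9%, 28.3% and 26.7%. Rises below are given on the authors' size factors. Relative to the listed median, 14 of the 45 members lay above it.

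**Figure D1:**
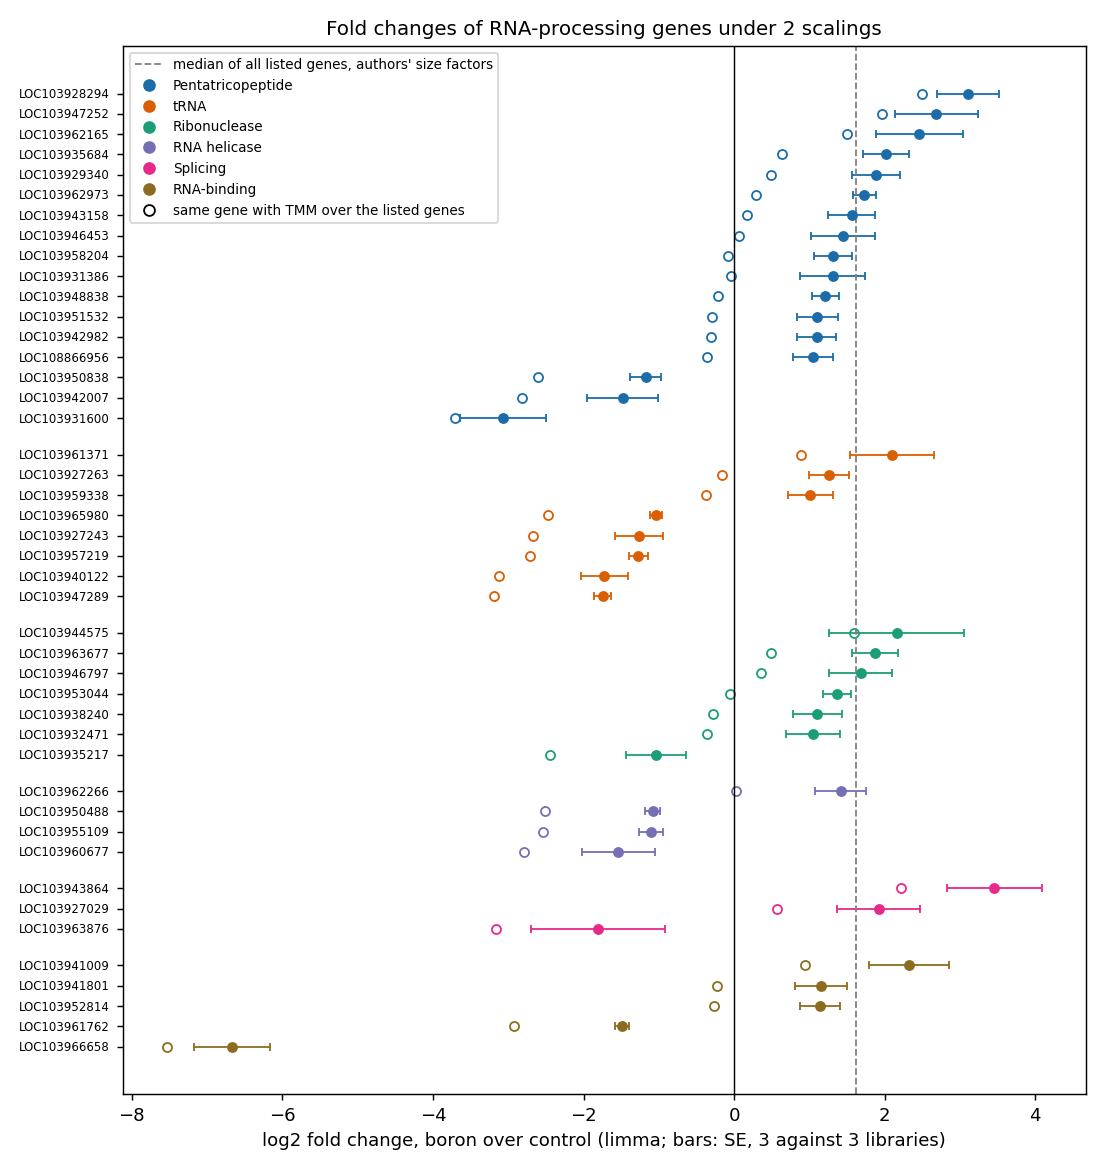
Log2 fold change of 44 of the 45 genes, boron over control, on the horizontal axis, with genes grouped and coloured by family. Filled points with SE bars are limma values on the authors' size factors, open points are the same genes with TMM over the listed genes, and the dashed line is the median of all listed genes, 1.62. TMM moves the genes towards lower values in boron fruit, and most rises between 1 and 2 move close to 0.

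On the authors' size factors direction went with the count level. Of the 6 members with a mean of at least 300 normalized counts, 5 were lower and 1 was higher, whereas of the 39 below that level 29 were higher and 9 lower. Among all listed genes at or above that level 476 were higher and 413 lower, and below it 2655 were higher and 713 lower. With TMM the 6 members had 1 higher and 5 lower, and the 39 had 3 higher and 10 lower. All listed genes then had 230 higher and 495 lower at or above that level, and 1203 and 746 below it. The level was chosen after the values were seen. Summed over all 45 genes, the boron libraries held 6879, 6538 and 8216 normalized counts and the control libraries 10199.8, 9311 and 10134. The total was lower in every boron library than in any control library, although 30 of the 45 genes were higher. The same held for the sum over all listed genes, which was 1854152 to 1890605 normalized counts in boron libraries and 2023143 to 2067658 in control libraries.

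**Figure D2:**
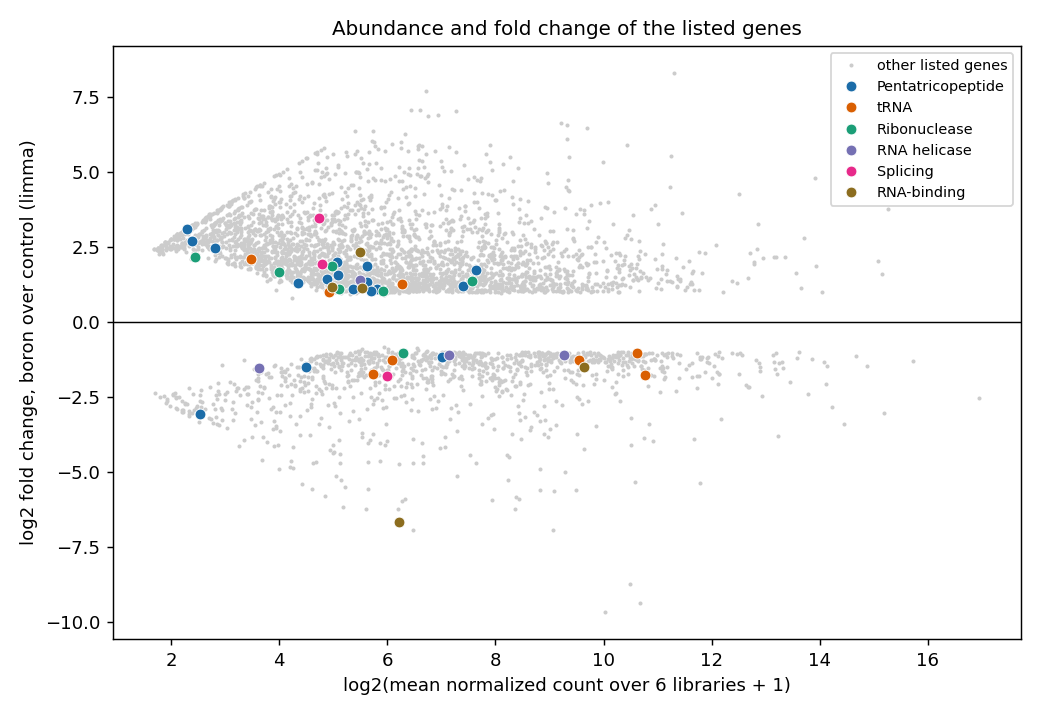
Mean abundance over the 6 libraries, as log2(normalized count + 1), against the log2 fold change of boron over control from limma, for all 4291 listed genes in grey and 44 of the 45 members coloured by family. Members lie mostly at low abundance above 0, and the 5 shown with a mean of at least 300 normalized counts lie below 0. The empty band around 0 reflects that the authors listed only called genes.

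Of the 17 listed pentatricopeptide genes 14 were higher and 3 lower in boron fruit, where 73.0% of listed genes were higher and 26.2% lower. Of these rises 2 passed again with TMM and DESeq2-type scaling, the rare LOC103928294 and LOC103947252, and 1, LOC103962973, with quantile normalization. Their summed level was 1144, 1173 and 1196 normalized counts in boron libraries 1 to 3 and 561, 619 and 647 in control libraries 1 to 3. These sums were lower in boron fruit with TMM and DESeq2-type scaling and overlapped with quantile normalization. All 17 genes had groups that did not overlap, as had 97.7% of all listed genes, which were chosen as changed. The family's median log2 fold change was 1.32, which differs from the listed median by -0.30. Levels were low, with a median of 16.4 normalized counts per kilobase against 38.1 for all listed genes. A location in chloroplast or mitochondrion stood in the description of 7, of which 6 were higher and 1 lower, and the other 10 split into 8 and 2.

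In boron fruit the highest level of the family per kilobase was that of LOC103962973 (At5g21222-like, scaffold NW_008988278.1, 170274 to 173516, plus strand). It had 289, 338 and 286 normalized counts in the boron libraries and 79.8, 96.8 and 97.2 in the control libraries. All boron values lay far above all control values, with a log2 fold change of 1.73 ± 0.15 (SE, limma adjusted p = 1.66e-06). It became 0.30 with TMM and 0.34 with DESeq2-type scaling and did not pass (limma adjusted p = 0.111 and 0.0751). With quantile normalization it was 0.88 and passed.

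LOC103948838 (At3g09650, chloroplastic, scaffold NW_008988098.1, 472052 to 493327, minus strand) was the next in boron fruit by level per kilobase. Its Arabidopsis namesake, HCF152, is required for processing of chloroplast transcripts that encode parts of photosystem II and the cytochrome b6f complex. The pear gene had 249, 201 and 251 normalized counts in the boron libraries and 100.7, 121 and 82.1 in the control libraries, and its log2 fold change of 1.21 ± 0.18 (SE, limma adjusted p = 9.26e-05) became -0.22 with TMM and -0.17 with DESeq2-type scaling. The lowest boron library still held more than the highest control library. These genes in turn made up 25.98% and 19.97% of the family's summed mean in boron fruit and 14.98% and 16.6% in control fruit.

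Other genes described as chloroplastic were rarer. LOC103935684 (At3g04760, chloroplastic-like) had 59.1, 54.99 and 45.1 normalized counts in the boron libraries and 14.96, 11.4 and 10.8 in the control libraries, a 4.28-fold difference of means and a log2 fold change of 2.02 ± 0.31 (SE, limma adjusted p = 0.000113). It passed under none of the 3 scalings, at 0.64 with TMM, 0.68 with DESeq2-type scaling and 0.57 with quantile normalization. It had the highest score of the family in the authors' deposited table, 3.11, at rank 748 of 42194 genes. LOC103943158 (At5g13770, chloroplastic) had 48.5, 41.5 and 59.9 normalized counts in the boron libraries and 16.95, 12.5 and 19.4 in the control libraries. In both, the boron libraries lay close together and well above the control libraries.

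Among genes described as mitochondrial, LOC103929340 (At4g01030) had 66.9, 89.3 and 70.7 normalized counts in the boron libraries and 12.96, 19.8 and 29.2 in the control libraries, with a log2 fold change of 1.88 ± 0.32 (SE, limma adjusted p = 0.000242). It passed under none of the 3 scalings, at 0.48 with TMM, 0.53 with DESeq2-type scaling and 0.62 with quantile normalization. Its locus overlaps that of an abscisic acid receptor gene on the opposite strand. Reads of the pair cannot be told apart since no source used here says whether counting used strand. LOC103951532 (At5g42310, mitochondrial-like) had 54.3, 62.2 and 49.1 normalized counts in the boron libraries and 21.9, 21.9 and 32.4 in the control libraries. Its Arabidopsis namesake is the chloroplast protein CRP1, which acts on transcripts of the photosynthetic electron transport chain. LOC103962165 (At2g38420) stayed at a few reads, with 6.78, 15.3 and 9.81 normalized counts in the boron libraries and 0.997, 3.12 and 0 in the control libraries.

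LOC103950838 (At1g26900, mitochondrial, scaffold NW_008988116.1, 247647 to 249610, minus strand) was the only pentatricopeptide gene of more than 50 normalized counts in its higher group that fell. It had 58.2, 88.4 and 90.3 normalized counts in the boron libraries and 186, 152 and 193 in the control libraries, a log2 fold change of -1.18 ± 0.21 (SE, limma adjusted p = 0.000313). The groups did not overlap, and the call held without each library in turn.

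The other 2 falls were in rare transcripts. LOC103942007 (At3g46870-like) had 6.78, 11.7 and 12.8 normalized counts in the boron libraries and 15.95, 46.8 and 35.6 in the control libraries, and its adjusted p of 0.0105 became 0.0502 without control library 2 (limma). LOC103931600 (At1g33350-like) had no read in any boron library and 2.99, 6.24 and 19.4 normalized counts in the control libraries, which is at least 9.84-fold lower at a floor of 3 reads over the group. Most of its control signal came from control library 3.

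The reverse pattern, reads in boron fruit and next to none in control fruit, was seen in a pair of rare genes. LOC103928294 (At2g44880-like) had 9.69, 9.02 and 4.91 normalized counts in the boron libraries and no read in any control library, which is at least 7.62-fold higher. In Arabidopsis the protein of this locus, AHG11, is needed for RNA editing of a mitochondrial transcript. LOC103947252 (At1g69290-like) had 26 reads over the boron libraries and 1 read over the control libraries, a 23.8-fold difference after adjustment for the libraries' size factors (95% exact interval from counting alone, 3.91 to 975). Such bounds and intervals cover counting error only.

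Genes with no location in the description made up the rest. LOC103958204 (At4g21190-like) had 75.6, 70.3 and 61.8 normalized counts in the boron libraries and 23.9, 33.3 and 24.8 in the control libraries and a log2 fold change of 1.32 ± 0.25 (SE, limma adjusted p = 0.000521), a value that became -0.09 with TMM and -0.04 with DESeq2-type scaling. LOC103946453 (At5g46680) had 32.95, 52.3 and 38.3 normalized counts in the boron libraries and 9.97, 10.4 and 27.003 in the control libraries, with control library 3 apart from the other two. LOC103931386 (At5g66520-like) had 29.1, 17.1 and 38.3 normalized counts in the boron libraries and 7.98, 9.37 and 14.04 in the control libraries, and its adjusted p of 0.0123 became 0.0593 without boron library 3 (limma). All 3 were higher in each boron library than in any control library.

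A pair of listed genes carry the same description, At1g73710-like, and lie next to each other. LOC103942982 (scaffold NW_008988057.1, 583766 to 585310, minus strand) ends 7 bases before LOC108866956 (585318 to 586652) begins, on the same strand. The first had 71.7, 59.5 and 95.2 normalized counts in the boron libraries and 28.9, 39.5 and 34.6 in the control libraries. The second had 74.6, 52.3 and 80.5 normalized counts in the boron libraries and 36.9, 34.3 and 27.003 in the control libraries. Their levels per kilobase were 48.9 and 51.8 normalized counts in boron fruit and 22.2 and 24.5 in control fruit. The pair had closely similar levels in both groups, and whether they are separate genes or parts of a single one was not tested. Counting them as 1 entry left 13 higher pentatricopeptide genes.

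**Figure D3:**
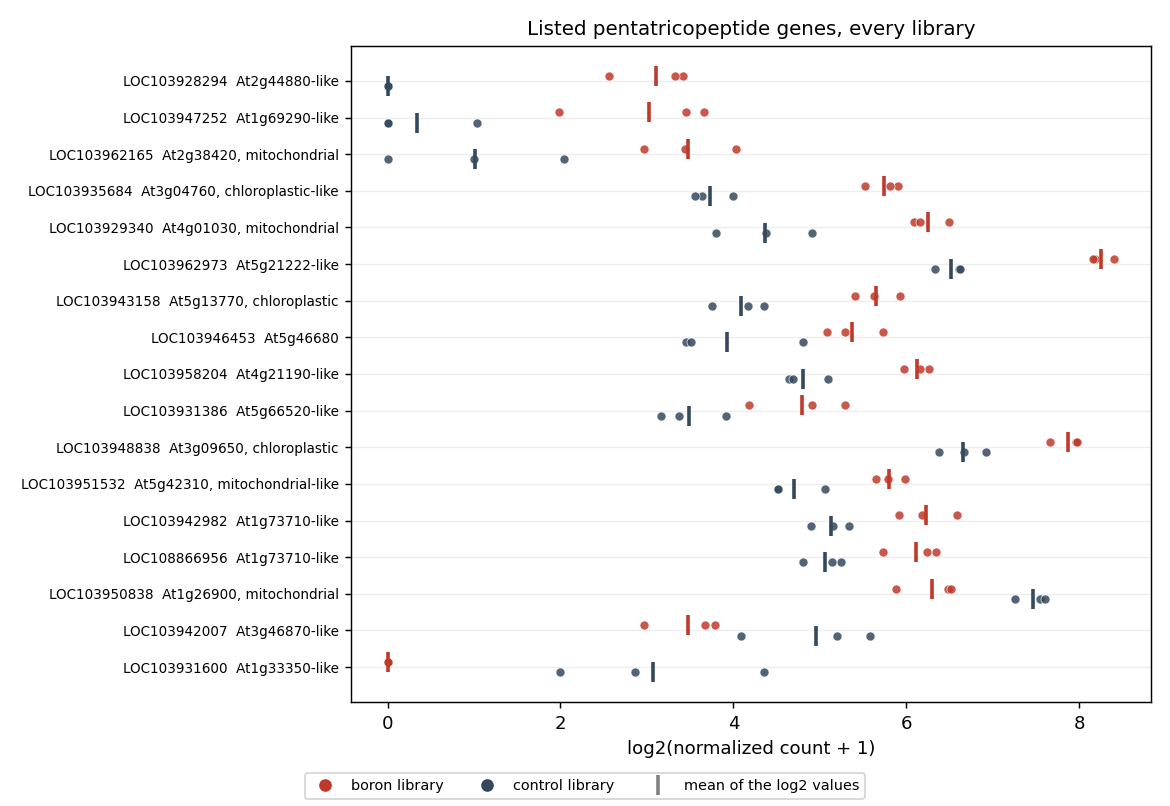
Level of each of the 17 pentatricopeptide genes as log2(normalized count + 1) on the horizontal axis, with 3 boron libraries in red, 3 control libraries in dark grey and the mean of the log2 values as a vertical tick. Genes are ordered by log2 fold change, the upper 14 are higher and the lower 3 are lower in boron fruit, and in none do the groups overlap. Groups did not overlap in 97.7% of all listed genes.

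Gene models without introns were seen in this family, a property that was not used to choose it. In 7 of the 17 pentatricopeptide genes the annotated gene length equalled the span on the scaffold, so no intron is annotated, whereas none of the other 28 members had such a model. Among all listed genes 629 of 4291 (14.7%) had one. The share among the pentatricopeptide genes was 41.2%. It counts both adjacent At1g73710-like models, LOC103942982 and LOC108866956, which may be parts of a single gene. The 45 members lay on 40 scaffolds.

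The 3 tRNA genes with the highest counts fell on the authors' size factors. At lower counts 3 synthetase genes rose, while LOC103940122 and LOC103927243 fell. Of 8 listed genes 5 were lower and 3 higher, where 26.2% of all listed genes were lower and 73.0% higher. The 3 rises did not pass under any of the scalings on listed genes. The summed level was 2386, 2332 and 2795 normalized counts in the boron libraries and 6220.2, 5687 and 6414 in the control libraries. Every boron sum lay below every control sum, and in normalized counts no other of the 6 families differed by as much.

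D-aminoacyl-tRNA deacylase (LOC103947289, scaffold NW_008988085.1, 670610 to 673731, plus strand) removes D-amino acids that have been wrongly loaded on tRNAs. In Arabidopsis this enzyme is known as GEKO1, from a mutant sensitive to ethanol. The gene had 749, 720.3 and 942 normalized counts in the boron libraries and 2806, 2399.9 and 2869 in the control libraries, a 3.35-fold difference of means, with a log2 fold change of -1.75 ± 0.11 (SE, limma adjusted p = 1.28e-07). Per kilobase it had the highest level of the 45 genes in control fruit, and its highest boron value was far below its lowest control value.

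Aspartate--tRNA ligase 2, cytoplasmic-like (LOC103965980, scaffold NW_008988343.1, 142484 to 145848, minus strand), which loads aspartate, had 1002, 987 and 1119.8 normalized counts in the boron libraries and 2144, 2109 and 2123 in the control libraries. The control libraries were within a narrow range, and the log2 fold change was -1.04 ± 0.07 (SE, limma adjusted p = 2.97e-07). A gene similar to wdr4 (LOC103957219), the non-catalytic partner of the enzyme that methylates a guanine of tRNAs, had 389, 393 and 527 normalized counts in the boron libraries and 1049, 957 and 1135 in the control libraries and a log2 fold change of -1.27 ± 0.13 (SE, limma adjusted p = 4.24e-06). Both genes were lower in every boron library than in any control library.

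Putative peptidyl-tRNA hydrolase PTRHD1 (LOC103940122), of a family that frees peptides from tRNAs dropped by the ribosome, had 28.1, 18.03 and 23.6 normalized counts in the boron libraries and 63.8, 63.5 and 117 in the control libraries. Its log2 fold change was -1.73 ± 0.31 (SE, limma adjusted p = 0.000361), and control library 3 held the most. A pseudogene with the domain of class I tRNA synthetases (LOC103927243) had 62.03, 25.2 and 35.3 normalized counts in the boron libraries and 83.8, 107 and 89.6 in the control libraries. Its groups did not overlap either.

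The rising tRNA genes were all synthetases. Valine--tRNA ligase, chloroplastic/mitochondrial 2 (LOC103927263), an organelle enzyme, had 103, 128 and 92.3 normalized counts in the boron libraries and 53.8, 30.2 and 51.8 in the control libraries and a log2 fold change of 1.26 ± 0.27 (SE, limma adjusted p = 0.000942), a value that became -0.16 with TMM and -0.11 with DESeq2-type scaling. Threonine--tRNA ligase, chloroplastic/mitochondrial 2-like (LOC103959338) had 39.7, 36.1 and 42.2 normalized counts in the boron libraries and 15.95, 18.7 and 22.7 in the control libraries, on a gene model of 441 bases, the shortest among the members. Asparagine--tRNA ligase, cytoplasmic 2-like (LOC103961371) had 13.6, 24.3 and 12.8 normalized counts in the boron libraries and 3.99, 1.04 and 5.40 in the control libraries. All 3 had groups that did not overlap, at levels far below those of the falling aspartate enzyme, which had 529.8 normalized counts per kilobase in boron fruit where these had 32.8, 89.2 and 8.77.

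Of the 7 genes matched as ribonucleases, 6 were higher and 1 was lower, and the lower one is the deoxyribonuclease. The shares over all listed genes were 73.0% higher and 26.2% lower. With TMM and DESeq2-type scaling none of the 6 passed, and with quantile normalization 1 did. The summed level was 534, 508 and 532 normalized counts in the boron libraries and 250.3, 256 and 367 in the control libraries, an order that TMM and DESeq2-type scaling reversed and quantile normalization lost.

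Dicer enzymes cut double-stranded RNA into the small RNAs of gene silencing. Dicer homolog 3a-like (LOC103953044, scaffold NW_008988041.1, 2369690 to 2381674, plus strand), of the type that in Arabidopsis makes the small interfering RNAs that direct DNA methylation, had 251, 272 and 289 normalized counts in the boron libraries and 78.8, 124 and 114 in the control libraries, a log2 fold change of 1.37 ± 0.19 (SE, limma adjusted p = 4.27e-05) that became -0.06 with TMM and -0.01 with DESeq2-type scaling. With quantile normalization it was 0.53 and passed (limma adjusted p = 0.0226). An uncharacterized gene on the opposite strand overlaps it. Dicer homolog 2-like (LOC103932471), of the type that acts on viral RNA in Arabidopsis, had 124, 62.2 and 57.9 normalized counts in the boron libraries and 55.8, 32.3 and 27.003 in the control libraries. Its groups were barely apart, with boron library 1 well above the others, and its adjusted p of 0.0151 (limma) became 0.0795 without boron library 1, 0.0509 without control library 2 and 0.0597 without control library 3. Its log2 fold change of 1.05 ± 0.36 (SE, limma adjusted p = 0.0151) became -0.37 with TMM, -0.32 with DESeq2-type scaling and -0.085 with quantile normalization.

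Further ribonuclease genes had lower counts. A 5'-3' exoribonuclease 3-like gene (LOC103963677), for a nuclear enzyme that degrades RNA from its 5' end, had 46.5, 46.9 and 51.03 normalized counts in the boron libraries and 10.97, 12.5 and 14.04 in the control libraries and a log2 fold change of 1.87 ± 0.30 (SE, limma adjusted p = 0.000164). Ribonuclease 3-like protein 2 (LOC103946797), for a cutter of double-stranded RNA, had 28.1, 19.8 and 21.6 normalized counts in the boron libraries and 4.99, 8.33 and 6.48 in the control libraries. Ribonuclease J-like (LOC103938240), a bacterial-type enzyme that in Arabidopsis works in chloroplasts, had 34.9, 64.9 and 39.3 normalized counts in the boron libraries and 22.9, 20.8 and 17.3 in the control libraries. In these 3 genes each boron library lay above each control library.

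Groups overlapped in the other 2. Ribonuclease H2 subunit B-like (LOC103944575), part of an enzyme that removes RNA paired with DNA, had 0, 9.92 and 15.7 normalized counts in the boron libraries and 0, 1.04 and 0 in the control libraries, so boron library 1 was at 0 like 2 of the controls. Over the groups this was 27 reads against 1. Its adjusted p of 0.0362 (limma) became 0.144 and 0.163 without boron library 2 or 3, and 0.101 and 0.103 without control library 1 or 3. Putative deoxyribonuclease TATDN1 (LOC103935217) had 49.4, 32.5 and 57.9 normalized counts in the boron libraries and 76.8, 57.2 and 188 in the control libraries, with control library 3 far above the rest and boron library 3 just above control library 2. Its log2 fold change of -1.04 ± 0.40 (SE, limma adjusted p = 0.0273) became -0.54 without control library 3, with an adjusted p of 0.119, and the adjusted p was 0.116 without boron library 2.

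Of 4 RNA helicase genes 3 fell and 1 rose on the authors' size factors, where 26.2% of listed genes were lower and 73.0% higher. The rise passed under none of the scalings. The summed level was 524, 608 and 523 normalized counts in the boron libraries and 983, 1101 and 1117 in the control libraries. The groups of all 4 genes were apart, as were those of 97.7% of all listed genes. Probable RNA helicase SDE3 (LOC103950488, scaffold NW_008988112.1, 918608 to 921714, minus strand), which in Arabidopsis takes part in RNA silencing, had 379.9, 428 and 374 normalized counts in the boron libraries and 771, 859.6 and 872 in the control libraries. Its log2 fold change was -1.08 ± 0.10 (SE, limma adjusted p = 1.99e-06). It thus fell where the Dicer-like genes rose on the authors' size factors.

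ATP-dependent RNA helicase DEAH12, chloroplastic-like (LOC103955109) had 93.05, 89.3 and 82.4 normalized counts in the boron libraries and 169, 197 and 209.5 in the control libraries and a log2 fold change of -1.11 ± 0.16 (SE, limma adjusted p = 7.45e-05). The authors' deposited table classes it under IBR, the name of a domain found in ubiquitin ligases. DEAD-box helicase 51-like (LOC103960677) was rare, with 4.85, 4.51 and 5.89 normalized counts in the boron libraries and 9.97, 26.02 and 17.3 in the control libraries. DEAD-box helicases are motors that unwind short stretches of RNA. Putative DEAD-box helicase 29 (LOC103962266) was the one rise, with 46.5, 85.6 and 60.8 normalized counts in the boron libraries and 33.9, 18.7 and 18.4 in the control libraries and a log2 fold change of 1.42 ± 0.34 (SE, limma adjusted p = 0.00207), which was 0.02 with TMM.

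Of the 3 splicing genes 2 were higher and 1 did not pass, where 73.0% of listed genes were higher and 26.2% lower. Of the 2 rises, 1 passed again under each of the 3 scalings. A pseudogene with the domains of PRP21 (LOC103943864), in yeast a subunit of the particle that recognises the intron branch site, had 49.4, 53.2 and 36.3 normalized counts in the boron libraries and 1.99, 11.4 and 1.08 in the control libraries. Its log2 fold change of 3.45 ± 0.63 (SE, limma adjusted p = 0.000376) passed under every alternative that tested it, the scalings included. Pre-mRNA-processing factor 19-like (LOC103927029), similar to a ubiquitin ligase of the spliceosome, had 18.4, 32.5 and 81.5 normalized counts in the boron libraries and 14.96, 7.29 and 6.48 in the control libraries, and the boron libraries differed several times over among themselves.

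The SR45a-like gene (LOC103963876), for a serine/arginine-rich protein that in Arabidopsis responds to stress, was the only member that did not pass. It had 12.6, 10.8 and 23.6 normalized counts in the boron libraries and 268, 47.9 and 11.9 in the control libraries. The libraries overlapped, since control library 3 was as low as the boron libraries and control library 1 stood far above all others. The log2 fold change was -1.81 ± 0.89 (SE, limma adjusted p = 0.0709), -0.67 (adjusted p = 0.303) without control library 1 and -2.86 (adjusted p = 0.00267) without control library 3. Its adjusted p was 0.093 with edgeR and 0.0176 with DESeq2 on the recovered reads. All 3 scalings lowered its fold change further, and under each it passed as lower. The limma adjusted p was 0.0124 with TMM, 0.0122 with DESeq2-type factors and 0.00803 with quantile normalization. The authors' deposited table lists it as called, with an adjusted p of 0.0471. The adjusted p-values computed here cover the listed genes only and are not comparable with that value.

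Among the 6 other RNA-binding protein genes 4 were higher and 2 lower, where 73.0% of listed genes were higher and 26.2% lower. Under each of the 3 scalings 1 of the rises passed. The largest fall of the 45 genes was that of the probable RNA-binding protein ARP1 (LOC103966658, scaffold NW_008988357.1, 321479 to 324101, minus strand), a gene with an RNA recognition motif, named in Arabidopsis for its regulation by abscisic acid. It had 1.94, 0 and 0 normalized counts in the boron libraries and 135, 171 and 132 in the control libraries. It was thus nearly absent from boron libraries, where 2 reads were counted in all against 421 in the control libraries, a 230.2-fold difference after adjustment for size factors (95% exact interval from counting alone, 63.3 to 1907). Its score of -4.79 in the authors' deposited table was at rank 42187 of 42194 genes, counted from the highest.

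RNA-binding protein 24-A-like (LOC103961762, scaffold NW_008988254.1, 251656 to 256593, minus strand), named after a vertebrate splicing regulator, was the other fall. It had 458, 371 and 429.9 normalized counts in the boron libraries and 1195, 1135 and 1203 in the control libraries, a log2 fold change of -1.49 ± 0.10 (SE, limma adjusted p = 1.56e-07). All boron values lay far below all control values, and per kilobase the means were 194 normalized counts in boron fruit and 544 in control fruit.

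Glycine-rich RNA-binding protein 4, mitochondrial-like (LOC103941009) had 81.4, 27.9 and 116 normalized counts in the boron libraries and 16.95, 15.6 and 6.48 in the control libraries, with boron library 2 the lowest of its group. Glycine-rich proteins of this kind are small and bind RNA in organelles or nucleus. The log2 fold change of LOC103941009 was 2.32 ± 0.53 (SE, limma adjusted p = 0.00162). It became 0.95 with TMM, 0.99 with DESeq2-type scaling and 0.91 with quantile normalization, and passed under none of them. Probable RNA-binding protein EIF1AD (LOC103952814), which shares a domain with a translation initiation factor, had 61.1, 54.1 and 73.6 normalized counts in the boron libraries and 22.9, 28.1 and 33.5 in the control libraries, and its log2 fold change of 1.14 ± 0.26 (SE, limma adjusted p = 0.00181) became -0.27 with TMM, -0.22 with DESeq2-type scaling and -0.06 with quantile normalization. Probable RNA-binding protein 19 (LOC103941801), whose vertebrate namesake is needed for ribosome production, had 48.5, 50.5 and 28.5 normalized counts in the boron libraries and 21.9, 13.5 and 19.4 in the control libraries. In each of these 3 genes the groups were apart.

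**Figure D4:**
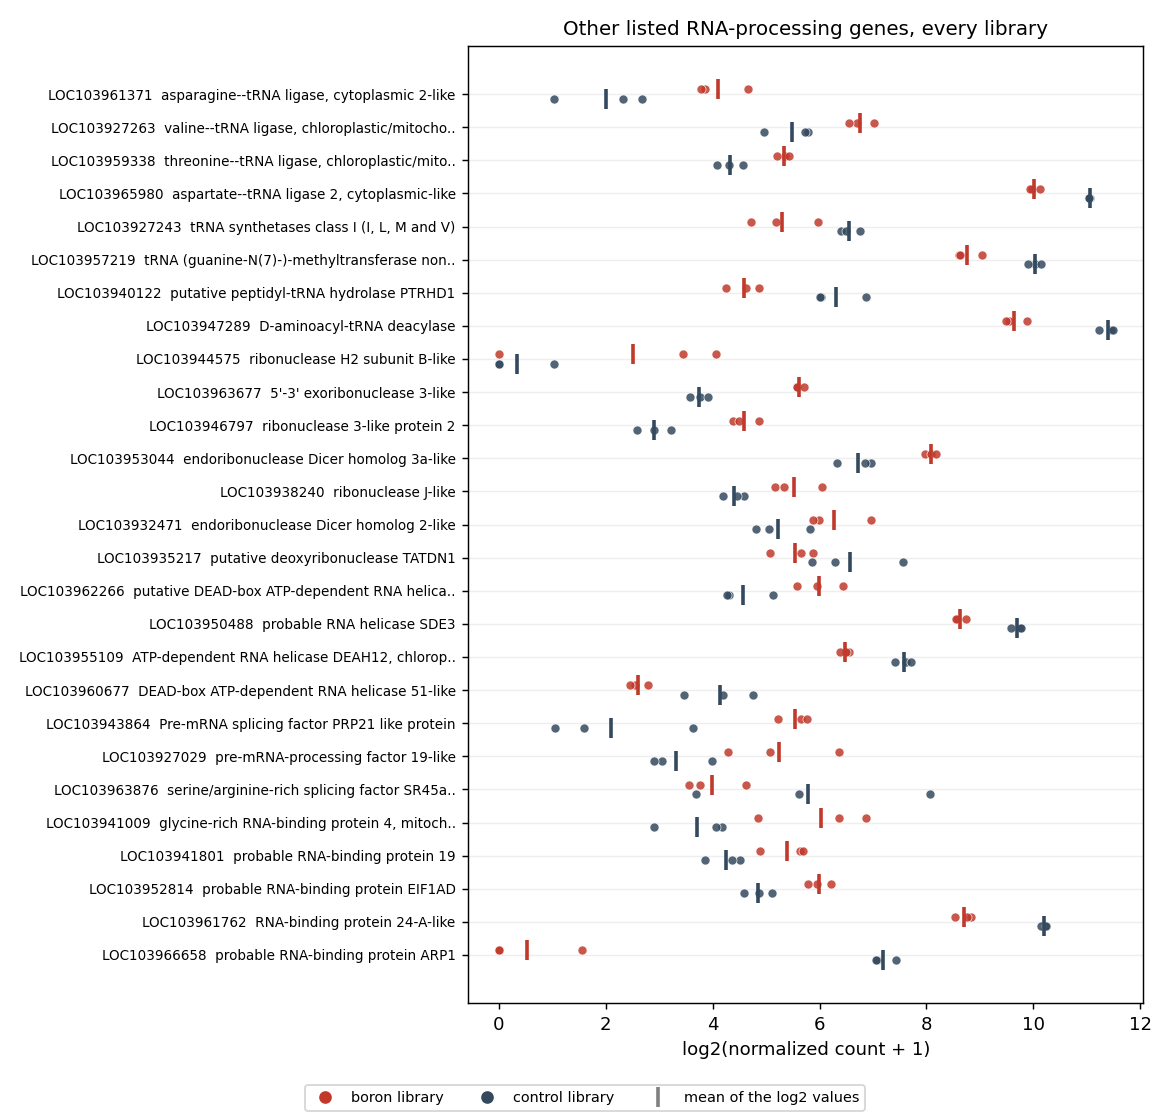
Level of the other members, with 1 RNA-binding protein gene left out, as log2(normalized count + 1) on the horizontal axis, with 3 boron libraries in red, 3 control libraries in dark grey and the mean of the log2 values as a vertical tick. Within each family genes run from the highest to the lowest log2 fold change. The groups overlap in 3 genes, ribonuclease H2 subunit B-like, TATDN1 and SR45a-like.

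**Figure D5:**
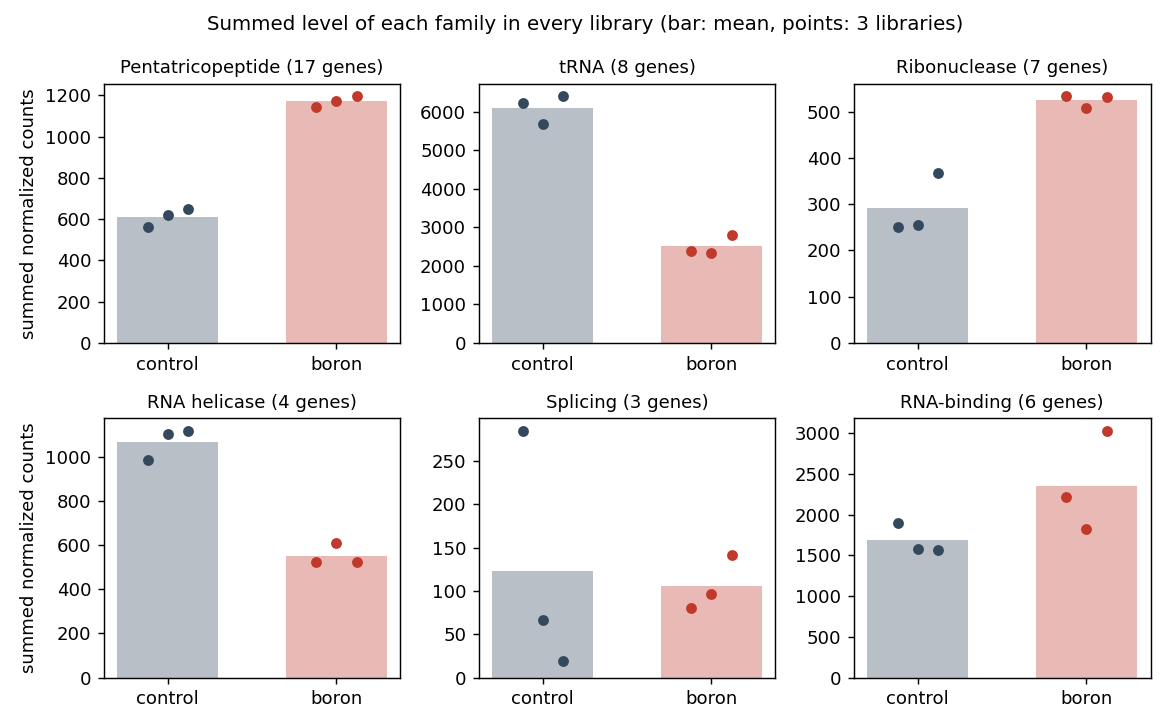
Summed normalized counts of the genes of each family in every library, with points for the 3 control and 3 boron libraries and bars for the means, from 0 on each vertical axis. The pentatricopeptide and ribonuclease sums are higher, and the tRNA and RNA helicase sums lower, in all boron libraries than in all control libraries, on the authors' size factors, while the splicing and RNA-binding sums overlap. With TMM and DESeq2-type scaling the pentatricopeptide and ribonuclease sums are lower in boron fruit.

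Lists of RNA metabolism genes, counted by description and in part including members, gave the following. Among all listed genes 73.0% were higher and 26.2% lower, and with TMM 33.4% were higher and 28.9% lower. Genes of the small RNA pathway (Argonaute, Dicer, RNA-dependent RNA polymerase) were higher in 9 of 9, or in 4 with none lower under TMM, and 2 of the 9 are the Dicer genes above. Their median change was 1.69 on the log2 scale, where all listed genes had 1.62. Their summed level ran from 6146 to 6268 normalized counts in boron libraries and from 1899.6 to 2049 in control libraries. The helicase SDE3, in the same pathway in Arabidopsis, fell.

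Partners of organelle transcription and RNA editing (sigma factors, mTERF and plastid transcriptionally active proteins) were higher in 6 of 8 and lower in 2. Other organelle intron splicing proteins were higher in 3 of 3, the PRP21-like member among them because its description holds the words RNA splicing. Organelle ribosomal proteins were higher in 4 of 5 and lower in 1. With TMM these 3 lists had 2, 2 and 0 higher and 2, 0 and 1 lower genes. Their median log2 fold changes were 1.97, 2.35 and 1.45.

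Lists of cytosolic and nuclear gene expression were counted in the same way. Translation factors were higher in 4 of 9 and lower in 5, and genes of mRNA turnover and the poly(A) tail were higher in 4 of 8 and lower in 3. The higher turnover genes include the exoribonuclease 3-like member LOC103963677. With TMM these 2 lists had 1 and 1 higher and 6 and 5 lower genes. Cytosolic ribosomal proteins were higher in 2 of 3 and lower in 1, and ribosome biogenesis genes were higher in 3 of 5 and lower in 2. With TMM none of them were higher, and 1 and 2 were lower. The single listed subunit of nuclear RNA polymerases was higher, but not with TMM. Of 2 genes for small nuclear ribonucleoproteins and serine/arginine-rich proteins 1 was lower, and the other is the SR45a-like gene that did not pass. With TMM these 2 genes were lower.

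Markers of other tissues also differed between the groups, and their part in the results above was not tested. Genes of photosynthetic tissue were higher in 57 of 59, with a summed level of 20092 to 21013 normalized counts in boron and 14178 to 15444 in control libraries, and 15 to 16 of them were at 0 in the control libraries and 0 in the boron libraries. Peel genes were higher in 16 of 18, with sums of 3960.0 to 4303 against 1481 to 1656, and 0 to 1 of them at 0 in boron and 2 to 3 in control libraries. Vascular genes were higher in 5 of 5, with sums of 579.6 to 666 against 144 to 163 and 0 against 0 to 1 at 0. Seed genes were higher in 5 of 7, with sums of 1905 to 2044 against 2320.4 to 2599.8 and 0 to 1 against 0 to 1 at 0. With TMM 52 photosynthetic, 13 peel, 3 vascular and 3 seed genes were higher, and the lower ones were as many as before in each list (2, 2, 0 and 2). No list of markers particular to pulp was used, so the tissue label was not checked. In bulk pulp, fewer cells of a type and less RNA per cell cannot be told apart.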

How the data were processed

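Values for each library were deposited for 4291 genes. They are a signal in the sense of normalized counts: each value is a read count that the authors divided by a size factor of its library, since all 4291 values of a library were whole multiples of its step within 5.48e-06 (100% of values). The size factors were 1.03, 1.11 and 1.02 for boron and 1.0029, 0.961 and 0.926 for control libraries. The authors' deposited log2 fold changes, p-values and adjusted p-values come with the same table, as do the gene lengths, a value of another kind. The second deposited table gives a score for 42194 genes, which equals the difference of group means over the sum of group SDs (each at least 0.2 of its mean): it was rebuilt within 1e-05 for all 4070 listed genes with reads in both groups. HISAT2 is named in the submitters' processing notes, and no source used here names the read counter, the genome build or the authors' test.

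limma 3.58.1 (R 4.3.3, trend and robust options) was fitted to log2(normalized count + 1) of all 4291 genes, two-sided, with Benjamini-Hochberg adjustment at 0.05, and was checked on simulated counts. Because listed genes were selected on this contrast, no set test was made. A count test on the recovered reads (edgeR 4.0.16 and DESeq2 1.42.0, the authors' size factors) called 3124 and 3146 listed genes higher and 1133 and 1145 lower, of which 30 and 30, and 14 and 15, were members. Fold bounds use a floor of 3 reads over the group. Replicates differed beyond sampling noise (chi-square per degree of freedom of at least 3.68). Members and lists were chosen with earlier results of these data known. The rule for named genes took, per family, the largest rises and falls and the genes of highest mean count among those that passed, had groups apart and reached 50 normalized counts in the higher group (19 genes), and members it did not take are given too. One RNA-binding protein gene is included in counts and sums but not reported here. Sequences and names for genes outside the listed table were not used here.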

Additional observations from a re-analysis of the deposited data

How the results depend on the processing

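The counts of higher and lower genes were 30 and 14, and 14 and 3 for the pentatricopeptide family. With a mean of at least 100 normalized counts they were 4 and 7, and 2 and 1, because few members are that abundant. With TMM, DESeq2-type and quantile scaling 4, 4 and 4 members, and 2, 2 and 1 pentatricopeptide genes, passed as higher. Loss of rises was largely built into these scalings, which rest on listed genes that were mostly higher. Which scaling fits these libraries was not tested. The fold change changed sign, without passing, in these named genes: with TMM, LOC103952814 -0.27, LOC103958204 -0.087, LOC103948838 -0.22, LOC103953044 -0.059, LOC103932471 -0.37, LOC103927263 -0.16; with DESeq2-type factors, LOC103952814 -0.22, LOC103958204 -0.043, LOC103948838 -0.17, LOC103953044 -0.014, LOC103932471 -0.32, LOC103927263 -0.11; with quantile normalization, LOC103952814 -0.057, LOC103932471 -0.085 (log2). Without each library in turn the counts were 28 to 29 higher and 13 to 14 lower, and 13 to 14 and 2 to 3 in the family. With the replicate block they were 30 and 14, and 14 and 3, and no call of a member was lost. Deviations of same-numbered libraries had correlations of -0.0389 to 0.0256, so no deviation shared by number was seen. Such correlations cannot tell whether the libraries were paired by tree or batch. Leaving out pseudogenes and the deoxyribonuclease, chosen after seeing the data, gave 29 and 12. Low read counts limit the rarest members, which rest on a few reads per library.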
